A study of Xenopus laevis with 9 samples.

Results

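The dorsal part of the head was set against both other tissues of a microarray study of the frog Xenopus laevis at stage 26. The study dissected 3 tissues from the head: anterior dorsal tissue, the primary mouth region, and ventral tissue with the cement gland. Total RNA of each sample came from tissue pooled from 75 to 100 embryos and was hybridised to 1 single-colour Affymetrix array, with 3 arrays per tissue. Titles assigned arrays to tissues, and anterior dorsal arrays 1, 2 and 3 were compared with the 6 others (primary mouth 1a, 2 and 3, ventral 1, 2 and 3). The labels name no genotype, treatment or clutch, so a p-value reflects the spread among these pools alone, which may be technical. In bulk tissue, fewer cells of a type and less RNA per cell cannot be told apart.

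The members are probe sets for which all 3 anterior dorsal signals lay above, or all below, all 6 others. Of 15491 probe sets that are not controls, 1101 lay above (7.11%) and 997 below (6.44%). Signals had to exceed the 40th percentile of their own array on at least 3 of 9 arrays for a test, which 904 (9.03% of the 10011 probe sets tested) and 752 (7.51%) of these members did. A gene can pass that filter on 1 tissue alone, so counts over tested members describe them and no more.

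The front of the amphibian neural tube forms forebrain and eyes. Its dorsal wall is patterned by Wnt and BMP signals and by transcription factors such as Emx, Pax and Zic proteins, while Notch signalling keeps progenitors dividing beside newly born neurons. The primary mouth forms ventral to the forebrain, where ectoderm and foregut endoderm touch directly. The cement gland is a mucus-secreting ectodermal organ just below it, with heart and liver precursors close behind.

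Across the 9 arrays the median signal was 51.1 to 59.6, in MAS5 units scaled to the same trimmed mean on each array. The arrays fell into 2 sets by how far the 3′ beta-actin signal exceeded the 5′ one, which depends on RNA and labelling quality. This ratio was 5.48 to 11.2 on 4 arrays (ventral 1, both primary mouth 1a and 2, and anterior dorsal 1) and 1.46 to 2.03 on the other 5. Both sets hold all 3 tissues, but anterior dorsal 1 and ventral 1 are alone of their tissue in the high-ratio set. Primary mouth 3 is alone of its tissue in the low-ratio set. So a change in calls within 1 set cannot be told apart from the effect of having fewer arrays. The summed signal of the tissue's 3 marker genes eomes.L, emx2.L and prph.S, which are themselves dorsal-enriched on these arrays and so give no separate check of the label, was 1421 to 1724 in anterior dorsal, 103 to 167 in primary mouth and 36.2 to 99.7 in ventral tissue. Summed markers of neural tissue were 2175 to 2452, 597 to 780 and 294 to 389. Epidermal markers were present in the dorsal pieces at 12028 to 13295, against 12637 to 17341 and 13887 to 18885. Heart and blood markers were 11.8 to 18.9, 127 to 230 and 628 to 975, and myeloid markers 161 to 207, 288 to 330 and 823 to 1449. In primary mouth and ventral tissue most of the heart and blood sum was the 1 gene nkx2-5.S. In primary mouth gata4.L read only 1.57, 7.91 and 1.28, and hba3.L, too low to be tested, read 0.565, 9.54 and 4.54. In dorsal tissue most of the myeloid sum was the 1 gene spib.S, at 109, 126 and 155. It read 89.1, 93.9 and 99.3 in primary mouth and 72.2, 109 and 115 in ventral tissue. Its dorsal signals lay above those of primary mouth and overlapped those of ventral tissue. Foregut markers were 553 to 631, 3137 to 3849 and 3395 to 5412, and notochord markers 179.6 to 225, 127 to 400.3 and 54.6 to 98.3. Most of the foregut sum was the 1 gene a2m.S in every tissue. Most of the notochord sum was likewise the 1 gene shh.L, described below as a Hedgehog ligand gene. The foregut markers hhex.L and tf.S were too low to be tested, at no more than 13.2 and 19.7 on any array. Both overlapped between dorsal tissue and primary mouth. Cement gland markers were 2865 to 3839, 5180 to 8705 and 16784 to 23175. The part of these other cell types in the differences was not tested.

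Against the mean of both other tissues, limma called 879 of 10011 tested probe sets higher (8.78%) and 1055 lower (10.5%) in anterior dorsal tissue at an adjusted p under 0.05. Of the higher calls 716 were separated from all 6 other arrays and 163 were not. Of the lower calls 616 were separated and 439 were not. Without anterior dorsal 2 the calls were 555 and 662, and without anterior dorsal 3 they were 570 and 692. With the array set as a term they were 1425 and 1570, within the high-ratio set 386 and 415, and within the low-ratio set 1012 and 1137.

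A stricter group passed the test against each other tissue separately as well. It held 389 probe sets higher (3.89%) and 310 lower (3.1%), and is called dorsal-enriched and dorsal-depleted here. Leaving out anterior dorsal 2 gave 186 depleted probe sets, and leaving out anterior dorsal 3 gave 173. Within the high-ratio set 211 and 113 of these were called against both tissues, and within the low-ratio set 292 and 174. The smaller of the log2 differences exceeded 1 for 232 enriched and 115 depleted probe sets, and exceeded 2 for 60 and 15. Named genes made up 228 and 188 of them. At the edge of the rule, the lowest dorsal signal of the replication gene cdc45.L was 148 against 146 for the highest other array, while wnt3a.S missed at 40.6 against 43.6. On the low side ednra.L just met the rule (highest dorsal 179, lowest other 187) and llgl2.L just missed it (124.1 and 123.6).

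**Figure D1:**
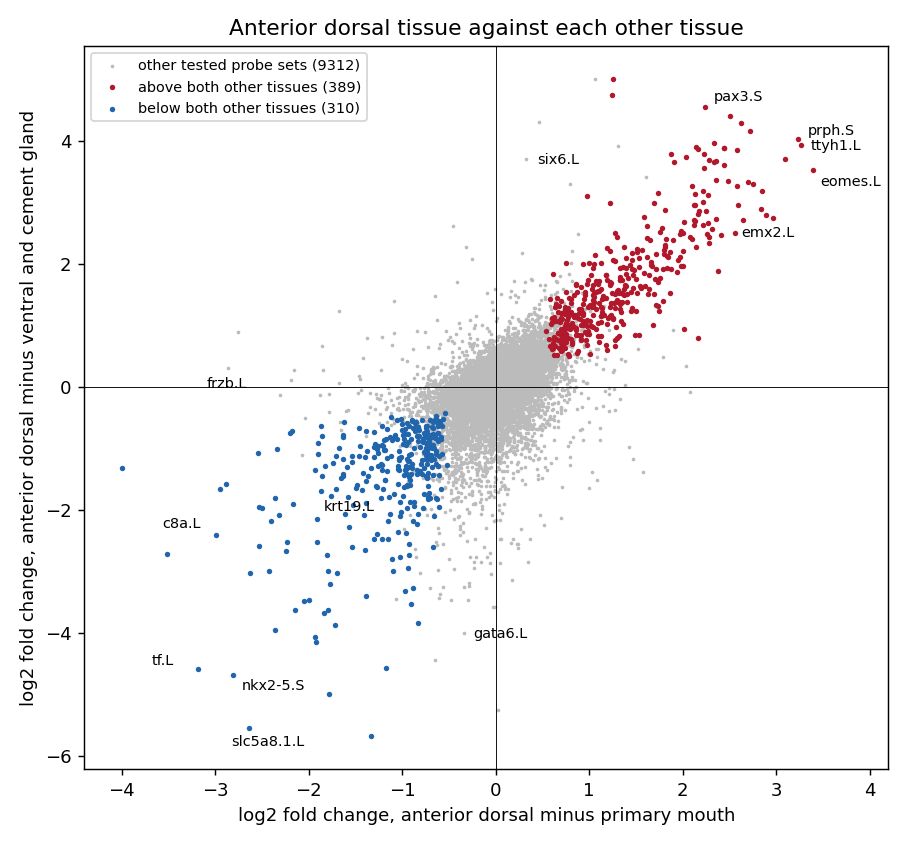
Each point is 1 of the tested probe sets, placed by its log2 difference between anterior dorsal tissue and primary mouth (horizontal) and between anterior dorsal tissue and ventral tissue with the cement gland (vertical), with 3 arrays per tissue. The 389 dorsal-enriched probe sets lie at upper right and the 310 dorsal-depleted ones at lower left, while gata6.L, six6.L and frzb.L lie near an axis because they differed from 1 tissue only.

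Ranked by the smaller of both pairwise differences, the first named gene was eomes.L (gene ID 398065), a T-box transcription factor of the dorsal telencephalon. Its signals were 247, 249 and 194 on the 3 anterior dorsal arrays, 3.27, 10.1 and 8.92 on the primary mouth arrays and 6.203, 8.03 and 1.69 on the ventral arrays. Every other array read near the bottom of the scale, where a low MAS5 signal does not show absence. The log2 difference from the mean of both tissues was 3.47 ± 0.16 (SE, limma adjusted p = 2.37e-07). The homeobox gene emx2.L (gene ID 444481), which specifies dorsal telencephalon, read 226, 139 and 129 against 23.1, 3.63 and 1.32 and 18.5, 9.24 and 2.53. Dorsal array 1 was the highest, and the groups were far apart (2.85 ± 0.28, adjusted p = 1.78e-05). The DM-domain factor gene dmrta2.S, active in the same region, read 392, 389 and 509 against 51.8, 41.3 and 62.5 in primary mouth and 16.1, 7.57 and 3.95 in ventral tissue. Its 3 tissues fell in 3 separate ranges, with primary mouth between the others, and it differed by 2.72 ± 0.21 from primary mouth and 4.16 ± 0.21 from ventral tissue (adjusted p = 1.17e-05 and 1.90e-07).

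Forebrain transcription factors as a list stood on the dorsal side. Of 23 members on the array 17 were tested. Of these 15 were higher than the mean of both tissues, 0 lower and 2 not past the threshold (median log2 difference 2.03), and 14 were dorsal-enriched. The markers eomes.L and emx2.L are among them and passed the filter on the dorsal arrays alone. Counts of this and later lists thus describe tested members only. Tested were 22 of 45 neuronal structural genes on the array, 15 of 30 eye genes and 25 of 50 heart, blood and vessel genes. Among all 5392 tested named genes 8.77% were higher, 10.8% were lower, the median was 0.01, and 3.82% were dorsal-enriched. The count of 15 was the same within each array set and with any array left out. The paired-box gene pax6.L, needed for forebrain and eye, read 503, 509 and 539.9 against 90.6, 104 and 57.8 and 30.9, 27.5 and 6.51. Again primary mouth lay between the other tissues (2.44 ± 0.27 and 3.90 ± 0.27, adjusted p = 0.000100 and 8.67e-07). The zinc finger gene fezf2.L, a forebrain regulator, read 484, 327 and 349.7, 91.6, 65.1 and 64.6 and 14.5, 13.2 and 6.73 in the same order of tissues. For it the difference from primary mouth was 2.16 ± 0.20 and from ventral tissue 3.87 ± 0.20 (adjusted p = 3.67e-05 and 2.16e-07).

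Other enriched members of this list were the POU factor genes pou3f2.S (2.43 ± 0.22, adjusted p = 8.30e-06) and pou3f4.L (2.03 ± 0.17, adjusted p = 6.01e-06). The LIM homeobox gene lhx2.L differed by 1.66 ± 0.14 (adjusted p = 5.95e-06). The anterior head genes otx1.L and otx2.L were also enriched, although otx2 is expressed in the cement gland too. Signals of otx2.L were 414, 443 and 449 in dorsal tissue, 199, 167 and 207 in primary mouth and 80.4, 88.6 and 120.2 in ventral tissue, a fall in 2 steps that did not overlap (1.13 ± 0.17 and 2.02 ± 0.17, adjusted p = 0.000981 and 4.25e-06). The 2 members that did not pass were the TALE homeobox genes meis1.S (0.34 ± 0.17) and meis2.L (-0.34 ± 0.16).

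Genes of the dorsal neural tube were enriched beside them, and the hindbrain gene hoxa2 was not. The list of midbrain, hindbrain and dorsal neural tube genes had 18 tested members, of which 12 were higher, 4 lower and 2 not past the threshold, with a median of 1.04, 9 dorsal-enriched and 1 dorsal-depleted. The depleted one was mab21l3.S (-0.99 ± 0.16, adjusted p = 0.000759), whose difference from primary mouth no longer passed (adjusted p = 0.0519 to 0.145) when ventral 2, primary mouth 2, or dorsal array 2 or 3 was left out. The paired-box gene pax3.S, a marker of the dorsal neural tube and neural folds, had the greatest value. It read 799, 876 and 706 in dorsal tissue, 137, 181 and 149 in primary mouth and 27.7, 26.6 and 5.304 in ventral tissue. The tissues formed 3 separate steps (2.24 ± 0.25 and 4.56 ± 0.25, adjusted p = 0.000116 and 2.70e-07). Zinc finger genes of the zic family, which act in dorsal neural tissue, moved with it. The signal of zic2.S was 498, 445 and 345 against 112, 98.1 and 69.0 and 17.0, 24.6 and 10.4, and the difference from the mean of both was 2.89 ± 0.19 (adjusted p = 1.28e-06). Its other copy zic2.L differed by 2.35 ± 0.16, zic1.S by 2.54 ± 0.18, zic5.S by 2.34 ± 0.24 and zic4.L by 1.54 ± 0.16, with adjusted p of 1.33e-06, 1.99e-06, 2.35e-05 and 2.46e-05. The forkhead gene foxb1.S, of the caudal forebrain and midbrain in mouse, read 109, 149 and 120.1 against 3.99, 7.80 and 10.99 and 2.09, 3.40 and 0.704. All 6 other arrays were near the bottom of the scale (2.78 ± 0.15, adjusted p = 4.78e-07). The midbrain-hindbrain boundary gene en2.L was higher by 1.27 ± 0.16 (adjusted p = 0.000168). Of the hoxa2 copies, hoxa2.L was lower against the mean of both (-0.94 ± 0.17, adjusted p = 0.00217). Its signals of 7.73, 9.15 and 4.49 overlapped those of primary mouth (16.9, 15.8 and 6.68) and lay below those of ventral tissue (54.4, 66.3 and 38.1).

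Progenitor genes were higher in large number, led by a membrane protein and by Notch-pathway repressors. Of 30 tested progenitor genes, 22 were higher, 1 lower and 7 not past the threshold, with a median of 1.35, and 15 were dorsal-enriched. The tweety-family membrane protein gene ttyh1.L (gene ID 447239) read 394, 399.5 and 378 on the dorsal arrays, a tight range. It read 20.6, 38.7 and 21.1 in primary mouth and 19.5, 13.97 and 1.44 in ventral tissue (3.60 ± 0.22, adjusted p = 8.12e-07). The Hes repressor gene hes7.1.L read 159, 127 and 153 against 9.53, 2.95 and 8.08 and 15.8, 3.18 and 0.786, with no difference past the threshold between the other tissues (2.87 ± 0.20, adjusted p = 1.64e-06). Its relative hes5.2.L, a Notch target, read 251, 263 and 417 against 65.2, 25.6 and 55.6 and 17.5, 15.5 and 11.97, and dorsal array 3 was the highest (2.86 ± 0.23, adjusted p = 3.53e-06). The gene hes5.10.L was the 1 lower member. It was low in dorsal tissue (11.1, 10.6 and 7.74) and primary mouth (5.04, 3.36 and 4.26) and high in ventral tissue (143, 146 and 228).

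The SoxB1 genes sox3.S and sox2.L, which maintain neural progenitors, were enriched as well, while the sox3.L probe set was too low to be tested. Signals of sox3.S were 924, 1212 and 1127 in dorsal tissue, 292, 167 and 246 in primary mouth and 109, 199.5 and 124 in ventral tissue (2.49 ± 0.21, adjusted p = 5.72e-06). For sox2.L the difference was 1.73 ± 0.17 (adjusted p = 1.87e-05), and primary mouth lay above ventral tissue by 1.08 ± 0.20 (adjusted p = 0.00303). The RNA-binding protein gene msi1.S differed by 2.35 ± 0.19 and the adhesion molecule gene ncam1.L by 2.18 ± 0.19 (adjusted p = 4.56e-06 and 8.30e-06). The other copy ncam1.S was higher than the mean of both (1.68 ± 0.30, adjusted p = 0.00182) but not enriched. Its difference from primary mouth did not pass (0.88 ± 0.35, adjusted p = 0.152). The secreted heparin-binding factor pleiotrophin, ptn.L, read 210.0, 194 and 179.9 against 20.9, 29.2 and 21.1 and 26.1, 24.8 and 15.98. The other tissues did not differ past the threshold (0.06 ± 0.17, adjusted p = 0.858), while the dorsal difference was 2.44 ± 0.15 (adjusted p = 7.86e-07). The proteolipid gene gpm6b.S, of neural cell membranes, differed by 2.54 ± 0.20 (adjusted p = 3.18e-06).

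Most tested genes of neuronal differentiation were higher too. Of 20 tested neuronal differentiation genes, 16 were higher and 0 lower, with 4 not past the threshold, with a median of 1.4, and 14 were dorsal-enriched. The count was 16 with any array left out. The Notch ligand gene dlc.L read 79.5, 169.6 and 154 on the dorsal arrays, with array 1 the lowest. It read 9.88, 13.6 and 15.9 in primary mouth and 11.5, 10.7 and 3.43 in ventral tissue (2.44 ± 0.21, adjusted p = 6.80e-06). A second ligand gene, dll1.L, differed by 1.62 ± 0.17 (adjusted p = 3.75e-05). Proneural basic helix-loop-helix genes were enriched at lower signals: neurog2.S by 1.23 ± 0.17, neurod1.L by 1.90 ± 0.19 and neurod4.L by 1.30 ± 0.14, with adjusted p of 0.000237, 2.10e-05 and 4.83e-05. The neuronal splicing regulator gene nova2.L (gene ID 779126) read 659, 725 and 747 against 118, 129 and 105.2 and 54.7, 28.4 and 21.1. It too was intermediate in primary mouth (2.44 ± 0.22 and 3.89 ± 0.22, adjusted p = 2.90e-05 and 2.74e-07). The RNA-binding protein gene celf3.S, of the nervous system, read 937, 519 and 526 against 131, 171 and 70.8 and 52.6, 37.4 and 19.1, with dorsal array 1 the highest (2.99 ± 0.28, adjusted p = 1.46e-05). Genes for the neuronal RNA-binding Hu proteins, elavl3.L and elavl4.L, differed by 2.01 ± 0.27 and 2.05 ± 0.19 (adjusted p = 0.000199 and 9.40e-06).

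Structural genes of neurons completed the neural picture, and most of those tested were higher. Of 22 tested members, 15 were higher, 1 lower and 6 not past the threshold, with a median of 1.57, and 14 were dorsal-enriched. The intermediate filament gene prph.S (gene ID 379545) read 1251, 1117 and 1098 in dorsal tissue, 141, 95.2 and 93.1 in primary mouth and 75.0, 66.1 and 32.0 in ventral tissue. No array overlapped between dorsal and other tissues (3.64 ± 0.21, adjusted p = 6.14e-07). Its other copy prph.L read 1257, 1344 and 1440.1, 242, 158 and 190.3 and 111, 128 and 118 in the same order (3.02 ± 0.15, adjusted p = 2.57e-07). The collapsin response mediator genes, which act on the cytoskeleton of growing axons, were 4 of the enriched members. For dpysl3.L the signals were 1076, 903 and 963, 172, 208 and 167 and 61.8, 56.7 and 28.7 (3.15 ± 0.18, adjusted p = 6.66e-07). For dpysl3.S, dpysl2.L and dpysl4.L the differences were 3.03 ± 0.20, 2.62 ± 0.18 and 2.26 ± 0.18 (adjusted p = 1.08e-06, 1.64e-06 and 3.53e-06). The neuronal tubulin genes tubb3.L and tubb2b.S differed by 2.13 ± 0.18 and 1.91 ± 0.18, with adjusted p of 6.19e-06 and 1.52e-05. The synaptic genes snap25.L and syp.L were enriched at low signals, syp.L reading 53.9, 46.3 and 47.6 against 13.7, 9.90 and 9.13 and 2.39, 9.60 and 9.44. In contrast the synaptotagmin gene syt1.L was lower (-0.78 ± 0.15, adjusted p = 0.00320), with signals of 179, 176 and 188 in dorsal tissue, 206, 161 and 233 in primary mouth and 447, 511 and 616 in ventral tissue. Only the ventral arrays stood apart for it.

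**Figure D2:**
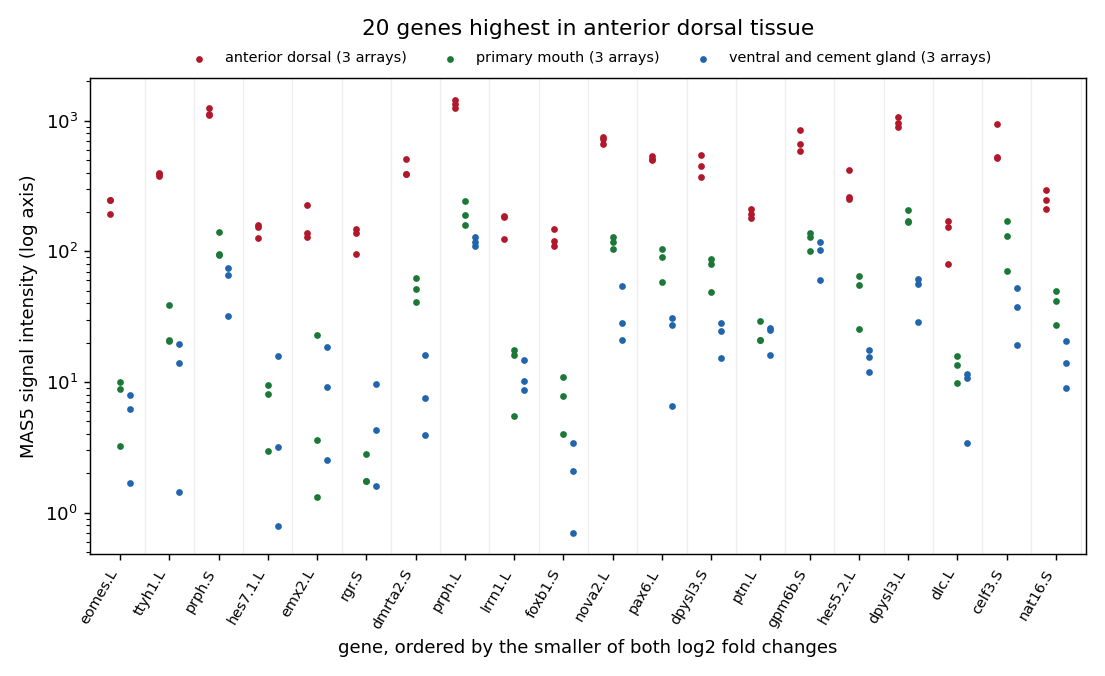
MAS5 signal intensity (log axis) on each of the 9 arrays for the 20 named genes with the greatest smaller log2 difference on the dorsal side, 1 point per array coloured by tissue. For every gene the 3 anterior dorsal points lie above all others, as the rule requires; dmrta2.S, pax6.L and nova2.L also have primary mouth above ventral tissue, and eomes.L and hes7.1.L do not.

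Leading genes outside the brain lists were lrrn1.L, rgr.S and nat16.S. The leucine-rich repeat membrane protein gene lrrn1.L read 185, 185 and 125 against 17.6, 5.54 and 16.2 and 14.7, 10.1 and 8.74 (2.68 ± 0.18, adjusted p = 1.53e-06). The gene nat16.S differed by 2.70 ± 0.18 (adjusted p = 1.36e-06). The opsin gene rgr.S, known from retina and its pigment epithelium, read 95.3, 138 and 147 against 1.76, 2.82 and 1.75 and 1.60, 9.66 and 4.32, with no other array above 9.66 (2.86 ± 0.16, adjusted p = 6.32e-07).

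Eye genes were mixed. Of 15 tested members, 8 were higher and 4 lower, and 3 did not pass, with a median of 0.54, and 4 were dorsal-enriched. Beside rgr.S these were the retinal homeobox gene vsx1.L (1.77 ± 0.22, adjusted p = 0.000120), the visual-cycle gene rlbp1.L (1.44 ± 0.22, adjusted p = 0.000534) and the pigment gene tyrp1.L (1.34 ± 0.14, adjusted p = 3.22e-05). Signals of tyrp1.L were 67.1, 71.1 and 51.8 against 9.22, 16.3 and 13.4 and 20.9, 15.3 and 16.7. Of the 4 lower members, tbx3.S was low in dorsal tissue (36.1, 47.4 and 40.3) and primary mouth (33.1, 42.7 and 28.1) alike and high in ventral tissue (283, 324 and 301). The lower count was 1 without anterior dorsal 3.

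Some ventral forebrain genes were high in dorsal tissue and primary mouth alike, and others fell in steps. Of 13 tested members, 6 were higher, 4 lower and 3 not past the threshold, with a median of 0.23 that was -0.04 in the high-ratio set and 0.67 in the low-ratio set. The eye-field and hypothalamus gene six6.L read 579, 482 and 427 in dorsal tissue and 365, 396 and 406 in primary mouth, against 38.9, 25.6 and 9.20 in ventral tissue. All dorsal arrays were above the others, but the difference from primary mouth was 0.33 ± 0.25 (adjusted p = 0.474), against 3.72 ± 0.25 from ventral tissue (adjusted p = 6.22e-07). The related six3.L read 168, 186 and 144, 142, 115 and 143 and 25.7, 24.3 and 22.5 (0.29 ± 0.16, adjusted p = 0.330, and 2.18 ± 0.16, adjusted p = 1.51e-06). The hypothalamic and thyroid gene nkx2-1.L was dorsal-enriched in steps of 246, 223 and 147, then 99.2, 100.3 and 85.0, then 9.71, 8.57 and 8.90 (0.97 ± 0.19 and 3.12 ± 0.19, adjusted p = 0.00556 and 3.66e-07). Both dlx2 copies and the stomodeal and pituitary gene pitx1.L were instead depleted. Of these dlx2.L differed by -1.14 ± 0.19 (adjusted p = 0.000986), and dlx2.S and pitx1.L are described with the cranial crest and cement gland genes.

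Signalling genes showed Wnt components on the dorsal side. Of 25 tested Wnt genes, 9 were higher and 3 lower, with 13 not past the threshold, with a median of 0.17, and 8 were dorsal-enriched. The ligand gene wnt8a.L read 64.7, 66.5 and 116 against 4.87, 13.5 and 6.43 and 8.26, 16.8 and 2.52 (1.98 ± 0.22, adjusted p = 4.05e-05). The forebrain ligand gene wnt8b.S was lower in signal, at 33.1, 34.1 and 63.7 against 1.15, 0.713 and 3.55 and 9.73, 6.14 and 5.14 (1.53 ± 0.17, adjusted p = 4.32e-05). The receptor genes fzd10.S and fzd3.L differed by 1.60 ± 0.18 and 1.52 ± 0.16 (adjusted p = 5.92e-05 and 3.10e-05). The nuclear effector gene tcf7l2.L differed by 1.64 ± 0.20 (adjusted p = 0.000129). The feedback gene axin2.S, a direct Wnt target, read 229, 185 and 297 against 69.1, 46.4 and 60.7 and 77.8, 84.7 and 107 (1.495 ± 0.177, adjusted p = 7.86e-05). The 3 lower members were 12% of those tested, near the 10.8% of all tested named genes. They were secreted antagonists, dkk1.S and both copies of the gene frzb, and none of the 3 was depleted against both tissues. The lower count was 0 without anterior dorsal 3.

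The transcription factor gene gli3.L, which mediates Hedgehog signals, was enriched, reading 94.8, 162 and 178 against 47.8, 34.6 and 46.2 and 23.2, 35.8 and 31.5 (1.59 ± 0.19, adjusted p = 9.39e-05). The ligand gene shh.L did not pass against the mean of both (0.23 ± 0.26, adjusted p = 0.590), with signals of 115, 133 and 117 in dorsal tissue, 322, 209 and 109.7 in primary mouth and 53.4, 58.2 and 35.9 in ventral tissue. Of 8 tested Hedgehog genes 4 were higher, 1 lower and 3 not past the threshold, with a median of 0.59.

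Genes of the BMP and TGF-beta list went the other way, through ventral tissue. Of 25 tested members 1 was higher (4%) and 12 were lower (48%), against 8.77% and 10.8% of all tested named genes. The other 12 did not pass, and the median was -0.47. Only 1 member was dorsal-depleted and 1 dorsal-enriched, near the 3.26% and 3.82% of all tested named genes. The lower count was 8 without anterior dorsal 3. The ligand gene bmp2.L read 15.5, 13.7 and 11.6 in dorsal tissue, 21.0, 28.2 and 19.5 in primary mouth and 106, 118 and 109 in ventral tissue. The dorsal arrays were the lowest of all, yet the difference from primary mouth was -0.39 ± 0.15 (adjusted p = 0.146) and that from ventral tissue -2.10 ± 0.15 (adjusted p = 1.18e-06). The ligand gene bmp4.S had the same order, at 35.6, 34.1 and 33.8, 39.0, 36.0 and 39.6 and 123, 103 and 104 (-0.10 ± 0.15, adjusted p = 0.733, and -1.32 ± 0.15, adjusted p = 3.74e-05). The depleted member was the feedback inhibitor gene bambi.S (-0.72 ± 0.19 from primary mouth, adjusted p = 0.0316), a call lost when any 1 of these arrays was left out: ventral 2, primary mouth 3 or 1a, or a dorsal array (adjusted p = 0.0518 to 0.125). The higher member was inhbb.L, which encodes an activin subunit (1.23 ± 0.24, adjusted p = 0.00305). Its call against primary mouth was lost when any array other than ventral 3 was left out (adjusted p = 0.0532 to 0.134).

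Genes of the retinoic acid list went in both directions. The receptor gene rarg.S (gene ID 397983) was one of the most depleted genes, at 116, 124 and 119 against 709, 618 and 967 and 493, 467 and 598. Every dorsal array was far below every other (-2.24 ± 0.16, adjusted p = 1.81e-06). The orphan receptor gene nr2f1.L, a regulator of forebrain patterning, was enriched at 196, 234 and 209 against 48.7, 49.1 and 28.3 and 31.8, 21.9 and 20.2 (2.25 ± 0.17, adjusted p = 2.36e-06). The synthesis enzyme gene aldh1a2.L overlapped between dorsal tissue (165, 173 and 112) and primary mouth (208, 166 and 192) and was low in ventral tissue (21.8, 19.2 and 12.34). Of 13 tested members 4 were higher and 3 lower, with 6 not past the threshold, with a median of 0.03. Of 10 tested FGF genes 3 were higher, 3 lower and 4 not past the threshold, with a median of -0.1. The ligand gene fgf20.L was depleted, reading 12.06, 5.95 and 2.74 in dorsal tissue, 109.6, 97.9 and 89.0 in primary mouth and 26.3, 28.5 and 33.9 in ventral tissue (-1.67 ± 0.15, adjusted p = 1.04e-05).

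Genes of replication and mitosis shifted by less. Of 71 tested members 6 were dorsal-enriched, against 3.82% of all tested named genes. Against the mean of both tissues 31 were higher, 0 lower and 40 not past the threshold, with a median of 0.49. Leaving out anterior dorsal 2 gave 16 and leaving out anterior dorsal 3 gave 15, against 50 with the array set as a term, 9 within the high-ratio set and 29 within the low-ratio set. The replication licensing gene cdc6.S read 221, 281 and 283 against 140.4, 107 and 107 and 86.6, 77.5 and 75.8 (1.29 ± 0.15, adjusted p = 5.90e-05). The guidance list mostly did not differ past the threshold, with 3 of 18 tested members higher, 1 lower and 14 not past it (median 0.03). The secreted repellent gene slit1.S was one of the 3, at 272, 242 and 214 against 104, 90.3 and 58.5 and 48.1, 49.0 and 35.4 (1.75 ± 0.18, adjusted p = 2.18e-05).

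**Figure D3:**
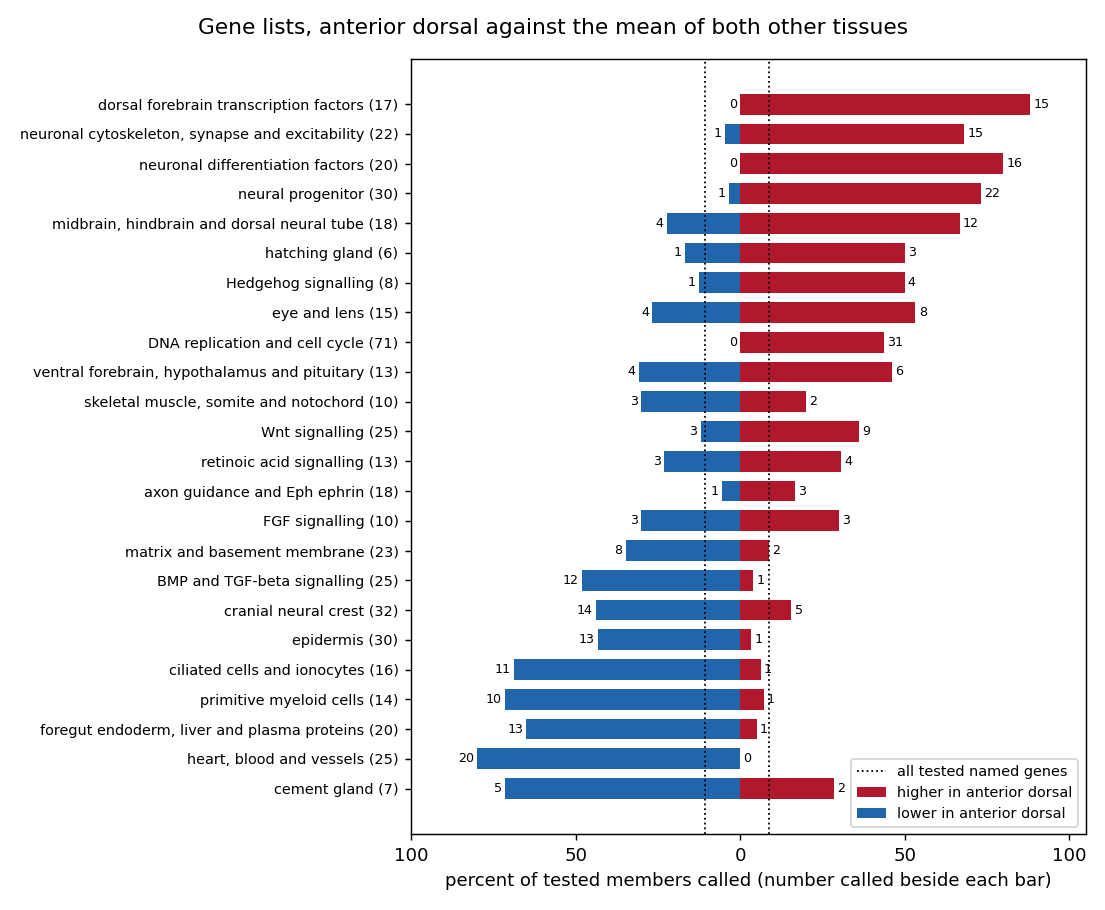
For each gene list (vertical axis, number of tested genes in parentheses), the percent of tested genes called higher (red, to the right) or lower (blue, to the left) in anterior dorsal tissue than the mean of both other tissues, with the number called beside each bar. Dorsal forebrain factors reach 15 of 17 on the higher side and heart, blood and vessel genes 20 of 25 on the lower side, against 8.77% and 10.8% of all tested named genes (dotted lines).

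The most depleted gene was tf.L (gene ID 398723), which encodes the iron-carrying plasma protein transferrin. It read 12.46, 9.31 and 6.90 in dorsal tissue, 182, 267 and 203 in primary mouth and 695, 577 and 519 in ventral tissue. The 3 tissues did not overlap, and the difference from the mean of both was -3.88 ± 0.16 (adjusted p = 2.10e-07). In the foregut, liver and plasma protein list 20 were tested, 13 of them lower, 1 higher and 6 unresolved by the test, with a median of -1.19, and 6 were dorsal-depleted, against 3.26% of all tested named genes. Genes of the complement system were among them. Signals of c8a.L, a component of the membrane attack complex, were 32.1, 24.5 and 13.6, 292, 357 and 234 and 238, 183 and 154 (-2.70 ± 0.20, adjusted p = 2.15e-06). The complement protease gene cfi.S read 45.6, 60.4 and 61.8, 384, 390.5 and 511 and 453, 539.5 and 752 (-2.83 ± 0.18, adjusted p = 9.49e-07). The protease inhibitor gene a2m.S stayed at high signals in dorsal tissue, 604, 552 and 524, and was still below 3469, 3571 and 2919.6 and 4687, 2794 and 3089. Primary mouth and ventral tissue did not differ past the threshold for it (-0.05 ± 0.20, adjusted p = 0.887), and the dorsal difference was -2.56 ± 0.17 (adjusted p = 1.28e-06). The related a2ml1.L differed by -2.24 ± 0.21 (adjusted p = 1.04e-05). The complement gene cfd.L, which the list does not hold, differed by -2.38 ± 0.16 (adjusted p = 1.33e-06). The 1 higher member of the list was nkx2-1.L, whose brain role is given above.

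Heart and vessel genes separated by which tissue carried the difference. Of 25 tested members of the heart, blood and vessel list 20 were lower and 0 higher, and 5 did not pass, with a median of -1.34, and 8 were dorsal-depleted. The cardiac homeobox gene nkx2-5.S (gene ID 379882) was low against both tissues, at 7.02, 11.8 and 4.88 in dorsal tissue, 120.4, 126 and 223 in primary mouth and 448, 572 and 826 in ventral tissue. Its differences were -2.81 ± 0.26 and -4.69 ± 0.26 (adjusted p = 3.54e-05 and 2.70e-07). Its relative nkx2-3.S, of heart and pharyngeal endoderm, read 1.11, 1.86 and 5.18, 46.3, 59.4 and 56.8 and 77.3, 102 and 97.2 (-2.22 ± 0.14, adjusted p = 1.08e-06). The apelin receptor gene aplnr.S, of endothelial precursors, read 92.3, 85.4 and 81.1 against 405, 296 and 265 and 327, 263 and 335, with both other tissues in one range (-1.68 ± 0.16, adjusted p = 1.31e-05). The endothelial and blood factor gene fli1.S was lowest in dorsal tissue and highest in primary mouth, at 85.6, 82.3 and 68.1, 348, 286 and 381 and 130.5, 183 and 175 (-1.40 ± 0.16, adjusted p = 4.79e-05).

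By contrast the GATA and Hand factors of the heart field passed the test against ventral tissue and not against primary mouth. Signals of gata6.L were 7.18, 1.60 and 1.57 in dorsal tissue and 11.8, 4.31 and 9.87 in primary mouth, which overlapped, against 409.7, 338 and 180.4 in ventral tissue. Against primary mouth 469 probe sets were called lower in dorsal tissue (4.68%) and against ventral tissue 1415 (14.1%). For gata6.L the difference from primary mouth was -0.34 ± 0.26 (adjusted p = 0.486) and from ventral tissue -4.003 ± 0.263 (adjusted p = 5.70e-07). For gata4.L these were -0.06 ± 0.17 (adjusted p = 0.870) and -2.86 ± 0.17 (adjusted p = 3.44e-07). For hand1.L they were -0.03 ± 0.15 (adjusted p = 0.941) and -3.59 ± 0.15 (adjusted p = 9.67e-08), with all 6 dorsal and primary mouth arrays at or below 3.17. These 3 genes were called lower against the mean of both without being members. Of the same family, gata5.S was a member, at 6.26, 3.40 and 10.1 in dorsal tissue, 11.6, 28.0 and 14.05 in primary mouth and 224, 223 and 155 in ventral tissue, and its difference from primary mouth did not pass the test either (-0.57 ± 0.22, adjusted p = 0.139).

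Most tested myeloid genes were lower in dorsal tissue as well. Of 14 tested members 10 were lower and 1 higher, and 3 did not pass, with a median of -1.02, and 4 were dorsal-depleted. The peroxidase gene mpo.S read 26.5, 27.7 and 20.8 in dorsal tissue, 115, 111 and 129.8 in primary mouth and 457, 632 and 677 in ventral tissue (-2.79 ± 0.16, adjusted p = 5.52e-07). The NADPH oxidase subunit gene cyba.L differed by -2.39 ± 0.20 (adjusted p = 6.01e-06). The 1 higher gene was the chemokine receptor gene cxcr4.L, which neural crest and brain cells also express, at 937, 1274 and 1609 against 201, 204 and 481 and 133, 143 and 104.6 (2.64 ± 0.26, adjusted p = 1.99e-05).

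Most cement gland genes were lower in dorsal tissue, and the agr2 and ag1 copies had a step between primary mouth and ventral tissue. Of 7 tested members 5 were lower, with a median of -1.54 and 4 dorsal-depleted, and the other 2 were the otx2 copies, higher in dorsal tissue. The count of 5 was the same within each array set and with any array left out. The ag1 copies kept high signals in dorsal tissue, ag1.L at 1402, 1641 and 1523 and ag1.S at 1005, 1341.9 and 1342.2. The lowest primary mouth signal of ag1.S was 1342.75, and its difference from primary mouth did not pass (-0.60 ± 0.26, adjusted p = 0.192). For ag1.L that difference was -0.84 ± 0.21 (adjusted p = 0.0271). The secretory-pathway gene agr2.L, a disulfide isomerase relative of the cement gland, read 288, 417 and 171 in dorsal tissue, 1429, 915 and 1152 in primary mouth and 3240.4, 2978 and 3394 in ventral tissue (-2.73 ± 0.23, adjusted p = 5.78e-06). Its other copy agr2.S read 169.7, 439 and 117, 975, 560.1 and 1068 and 3734, 3189.8 and 4334 in that order, and its highest dorsal array came close to its lowest primary mouth array. For it the difference from primary mouth was -1.93 ± 0.38 (adjusted p = 0.00588, and 0.0647 within the low-ratio set). The homeobox gene pitx1.L, active in cement gland and stomodeum, was not graded in this way. It read 31.0, 29.5 and 25.0 in dorsal tissue, 209, 239.8 and 191 in primary mouth and 168, 164 and 98.4 in ventral tissue (-2.09 ± 0.17, adjusted p = 5.44e-06). Its primary mouth and ventral levels did not differ past the threshold (0.55 ± 0.20, adjusted p = 0.0924).

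Some epidermal genes were lower in dorsal tissue and more did not pass the test. Of 30 tested members 13 were lower and 1 higher, and 16 did not pass, with a median of -0.51, and 6 were dorsal-depleted. The type I keratin gene krt18.1.L read 262, 403 and 338 in dorsal tissue, 1275, 1238 and 2686 in primary mouth and 1718, 2168 and 2758 in ventral tissue (-2.45 ± 0.25, adjusted p = 2.46e-05). Its relative krt19.L read 1235, 1254 and 949, 4184, 4837 and 4007 and 6459.7, 4262 and 4724 (-2.03 ± 0.16, adjusted p = 4.04e-06). The tight-junction genes cldn6.1.L and cldn6.1.S differed by -1.76 ± 0.17 and -1.22 ± 0.18 (adjusted p = 1.31e-05 and 0.000511). The epidermal keratin gene krt12.4.L, at 3142, 4417 and 4529.9, 3242, 3753 and 4188 and 5130.1, 4541 and 6372, overlapped between dorsal tissue and primary mouth, with the ventral arrays above both, and did not pass the test (-0.16 ± 0.17, adjusted p = 0.582). Signals of the epidermal lectin gene itln1.L overlapped between all tissues (-0.38 ± 0.22, adjusted p = 0.285).

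Genes of ciliated cells and ionocytes were lower for 11 of 16 tested members, with 1 higher, 4 not past the threshold and a median of -0.69, and 3 were dorsal-depleted. The axonemal gene tekt2.S was one of these 3, at 58.6, 49.9 and 50.4 against 124, 119 and 103 and 162, 142 and 155 (-1.11 ± 0.13, adjusted p = 8.80e-05). The ionocyte proton pump gene atp6v1b1.L overlapped between dorsal tissue (15.0, 16.7 and 18.6) and primary mouth (19.5, 40.4 and 15.4) and was high in ventral tissue (251, 302 and 298).

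Cranial crest and pharyngeal genes were lower for 14 of 32 tested members, with 5 higher, 13 not past the threshold and a median of -0.47, and 7 were dorsal-depleted and 3 dorsal-enriched. The enriched ones were pax3.S, zic1.S and cxcr4.L. They are counted in other lists too, pax3.S and zic1.S with the dorsal neural tube and cxcr4.L with guidance and myeloid genes. The 3 probe sets of the crest markers sox10.L, snai2.L and snai2.S were too low to be tested, and their summed signal was 55.0 to 63.6 in dorsal tissue, 15.17 to 35.4 in primary mouth and 32.3 to 45.3 in ventral tissue. Of these, sox10.L read 37.2, 43.6 and 27.3 in dorsal tissue, above its highest signal of 15.6 on the other 6 arrays. The homeobox gene dlx2.S, of crest in the pharyngeal arches, read 111, 138 and 68.2 in dorsal tissue, 598, 512 and 232 in primary mouth and 298, 552 and 294 in ventral tissue (-1.78 ± 0.30, adjusted p = 0.00132). The lowest primary mouth array was still above every dorsal array. The pharyngeal T-box gene tbx1.L differed by -1.43 ± 0.21 (adjusted p = 0.000361). The proteoglycan gene vcan.L, of embryonic matrix, read 273, 272 and 247, 985, 753 and 827 and 391, 441 and 589, highest in primary mouth (-1.21 ± 0.15, adjusted p = 0.000152). The frontonasal gene alx1.L was higher against the mean of both (1.09 ± 0.16, adjusted p = 0.000523), at 177, 187 and 201 in dorsal tissue, 348, 205 and 253 in primary mouth and 17.4, 18.4 and 15.23 in ventral tissue. Of the hatching gland list 3 of 6 tested members were higher, 1 was lower and 2 did not pass (median 1.0). The higher ones were the hatching enzyme gene astl3a.1.L and again pax3.S and zic1.S. Signals of astl3a.1.L were 6233, 5771 and 5810 in dorsal tissue, 3699, 4633 and 4593 in primary mouth and 571, 583 and 59.2 in ventral tissue. Its difference from primary mouth did not pass (0.47 ± 0.59, adjusted p = 0.690), against 4.32 ± 0.59 from ventral tissue (adjusted p = 0.000194). Of 10 tested muscle and notochord genes 2 were higher, 3 lower and 5 not past the threshold (median 0.2). Matrix genes had 8 of 23 tested members lower, 2 higher and 13 not past the threshold, with a median of -0.25, and 6 dorsal-depleted.

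Further depleted genes belonged to none of these lists. The monocarboxylate transporter gene slc5a8.1.L read 10.5, 7.15 and 4.64 in dorsal tissue, 121, 65.2 and 259.7 in primary mouth and 1186, 946 and 1109.8 in ventral tissue. It had the greatest difference from ventral tissue of the 20 genes named in each direction (-5.55 ± 0.34, adjusted p = 3.57e-07). The stress-responsive gene ndrg1.L read 6.78, 2.83 and 4.79, 117, 82.0 and 88.9 and 181, 155 and 116 (-2.70 ± 0.17, adjusted p = 8.44e-07). The galectin gene lgals4.2.L read 174, 189 and 106, 657, 447 and 819 and 3479, 2608 and 2911, a step at each tissue (-3.04 ± 0.21, adjusted p = 1.80e-06). The phosphatase inhibitor gene ppp1r1a.L differed by -2.89 ± 0.20 and the phospholipid-binding annexin gene anxa1.1.L by -2.27 ± 0.15 (adjusted p = 1.41e-06 and 1.28e-06). The zinc finger repressor gene prdm1.S read 24.4, 36.7 and 13.1 against 185, 113 and 279.9 and 94.6, 177 and 208, with both other tissues overlapping (-2.20 ± 0.29, adjusted p = 0.000196).

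**Figure D4:**
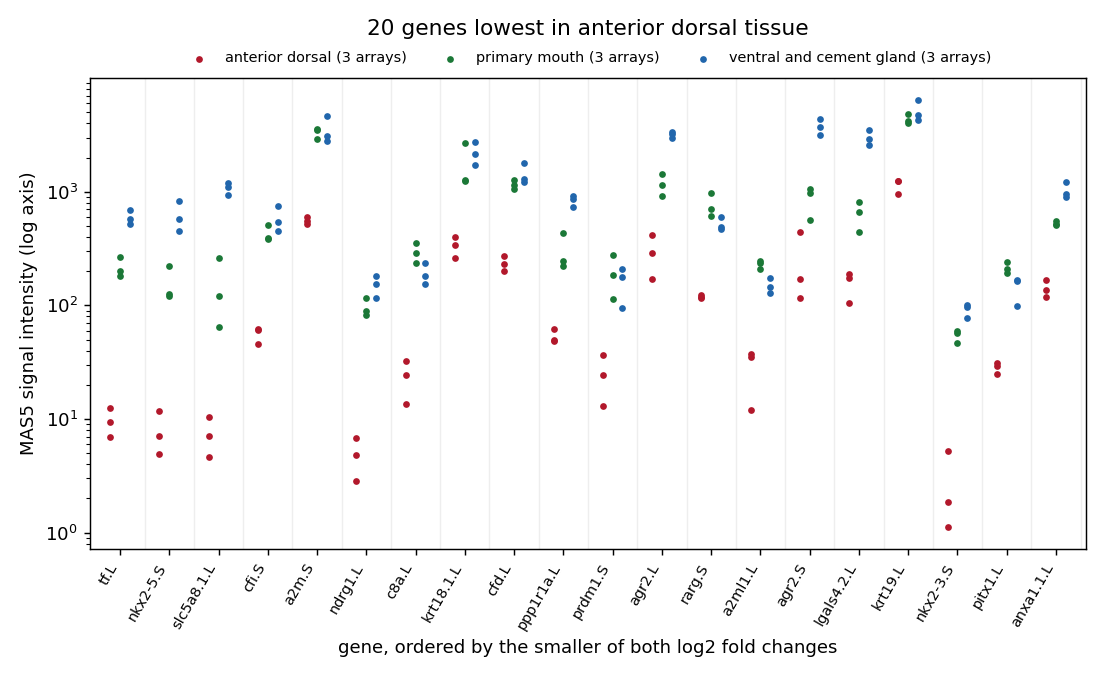
MAS5 signal intensity (log axis) on each of the 9 arrays for the 20 named genes with the greatest smaller log2 difference on the low side, 1 point per array coloured by tissue. All anterior dorsal points lie below the others, as the rule requires; tf.L, nkx2-5.S and slc5a8.1.L also have ventral tissue above primary mouth, whereas a2m.S, krt19.L and prdm1.S have both tissues in one range.

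The other tissues were compared for the members in a contrast between their 6 arrays. Its log2 difference leaves dorsal tissue out, but the dorsal arrays enter its error estimate. Of the 389 dorsal-enriched probe sets, primary mouth was above ventral tissue for 79 (20.3%, against 4.42% of all tested) and below it for 6 (1.54%, against 10.1%), while 304 were not called. The median log2 difference was 0.30, and 0.06 over all tested. Of the 310 depleted ones, primary mouth was below ventral tissue for 89 (28.7%) and above it for 17 (5.48%), while 204 were not called, and the median was -0.22. In each alternative the members were defined anew, so their number changed too. The count of 79 was 45 of 332 enriched without primary mouth 1a and 48 of 349 without ventral 3. The count of 89 was 43 of 173 depleted without anterior dorsal 3 and 53 of 232 without primary mouth 1a. It was 56 of 186 without anterior dorsal 2 and 56 of 242 without primary mouth 2. Within the high-ratio set the counts were 32 of 215 and 35 of 115, and within the low-ratio set 50 of 327 and 33 of 198. The members were selected on contrasts that share these 6 arrays, so the counts describe them.

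Many genes of this frog exist in 2 copies, named L and S after the long and short chromosomes, and probe sets of the 2 may cross-hybridise. Of 213 dorsal-enriched L or S symbols, 49 had the other copy tested. In 43 of these it had the same direction, in 32 it was called against the mean of both, in 23 it was enriched as well and in 1 it was called the opposite way. Of 183 depleted symbols 53 had the other copy tested, with 49 in the same direction, 39 called, 22 depleted as well and 2 called the opposite way. Across 690 pairs with both copies tested, the dorsal difference itself differed between copies for 47 (6.81%, adjusted p under 0.05), a comparison chosen after seeing the data. That count was 21 without anterior dorsal 3, 25 without anterior dorsal 2, 27 without ventral 2 and 29 without primary mouth 2.

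The copies of pax3 were among the pairs that differed most. While pax3.S was dorsal-enriched, pax3.L read 927, 553 and 519.8 in dorsal tissue, 1369, 769 and 551 in primary mouth and 1119, 765 and 785 in ventral tissue, all overlapping. The dorsal difference of pax3.L minus that of pax3.S was -3.80 ± 0.33 (adjusted p = 1.42e-05). For cxcr4 the same value was 2.65 ± 0.27 (adjusted p = 4.75e-05), since cxcr4.S read 761, 909 and 705, 735, 779 and 854 and 886, 729 and 773, also overlapping. For the growth-cone gene gap43 it was 1.51 ± 0.22 (adjusted p = 0.00103), with gap43.L enriched and gap43.S at 0.23 ± 0.14 (adjusted p = 0.278). The notochord and pineal homeobox gene not had a value of 1.95 ± 0.25 (adjusted p = 0.000442), with not.L reading 70.8, 116 and 125 against 13.7, 20.5 and 6.95 and 10.0, 8.33 and 9.73. For prph and dpysl3, by contrast, the copies did not differ past the threshold (-0.62 ± 0.22, adjusted p = 0.151, and 0.13 ± 0.19, adjusted p = 0.797). In each of the 4 differing pairs named here the adjusted p was at most 0.0108 with any array left out.

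**Figure D5:**
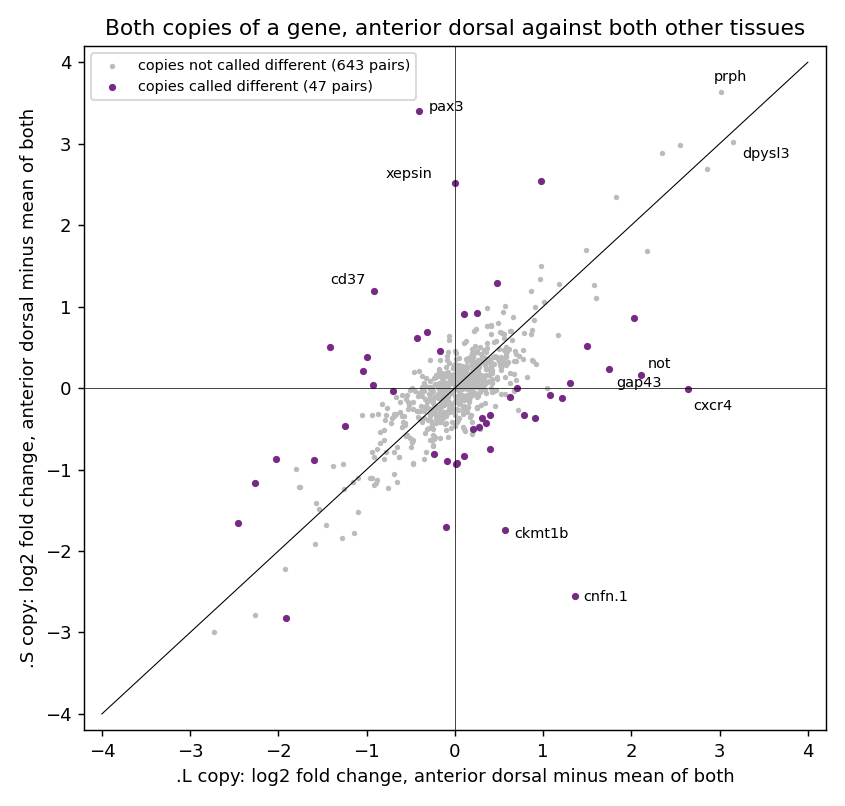
The log2 difference between anterior dorsal tissue and the mean of both other tissues for the L copy (horizontal) and the S copy (vertical) of each of 690 genes with both copies tested, with the 47 pairs whose copies differ marked. The copies of prph and dpysl3 lie near the diagonal at upper right, while pax3 and cxcr4 lie far from it.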

How the data were processed

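RNA of 9 tissue samples was hybridised to single-colour Affymetrix arrays, per the labels. For each probe set the authors deposited 1 linear signal intensity on every array. These were made with MAS5, per the submitters' processing notes; its version was not given in the sources used here, and detection calls were not analysed here. The trimmed mean is the same on every array. No per-sample column was left unused (0).

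The arrays hold 15611 probe sets, of which 120 controls were left out. By the platform annotation 9304 had 1 symbol (299 of them placeholders), 195 several and 5992 none; 9227 gene IDs matched RefSeq, updating 2 symbols. Signals plus a pseudocount of 16 were taken to log2, which understates changes of low signals, and 10011 probe sets with at least 3 of 9 arrays above their own 40th percentile were fitted in limma 3.58.1 (R 4.3.3; lmFit, eBayes with a trend, 6 residual degrees of freedom, Benjamini-Hochberg over all tested probe sets). Contrasts set anterior dorsal tissue against the mean of both others and against each. They share arrays. Where a symbol had several tested probe sets, the one with the highest mean signal was used. Of 28 dorsal-enriched and 22 dorsal-depleted symbols with several, none (0) had a probe set called the other way. All probe sets had the same direction for 25 and 20 of these symbols. All were enriched, or all depleted, for only 8 and 2. Pairs of gene copies were tested in limma on the difference of their log2 signals. On simulated data with 200 changed probe sets the test recovered 80% of changes of 1 on the log2 scale and 99% of changes of 2, with 5.79% false calls among its calls. The simulated errors were independent between arrays. Real deviations from the tissue means were correlated between arrays by array set (r from -0.681 to 0.676), so these rates may not hold for the real arrays.

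The members and 24 gene lists were chosen with earlier results of these data known. Lists can share genes. Genes were named by a rule: the 20 highest and 20 lowest by the smaller pairwise difference among named members past both tests, the 3 marker genes, and up to 5 called and separated members per list and direction. Further list members and gene copies were named after their values were seen: aldh1a2.L, alx1.L, atp6v1b1.L, axin2.S, cxcr4.S, dll1.L, dpysl4.L, elavl3.L, en2.L, fli1.S, gap43.S, gata4.L, gata6.L, hand1.L, hes5.10.L, hoxa2.L, itln1.L, krt12.4.L, lhx2.L, msi1.S, ncam1.L, ncam1.S, neurod1.L, neurod4.L, neurog2.S, pax3.L, pou3f2.S, pou3f4.L, shh.L, snai2.L, snai2.S, sox10.L, sox2.L, sox3.L, sox3.S, syp.L, syt1.L, tbx3.S, tubb2b.S, tubb3.L, zic4.L and zic5.S. Also named in this way were frzb.L, frzb.S, gap43.L, hba3.L, hhex.L, meis1.S, meis2.L, otx1.L, otx2.S, snap25.L, spib.S and tf.S. The number of arrays limits the precision. Alternatives changed the pseudocount, filter, normalization, variance trend, replicate block, array set and the arrays included.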

Additional observations from a re-analysis of the deposited data

How the results depend on the processing

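Low signals limit the comparison: for 110 of the 389 dorsal-enriched probe sets every other array, and for 100 of the 310 depleted ones every dorsal array, was below its own 40th percentile, so those folds are imprecise. Calls higher than the mean of both tissues (879) numbered 1335 with a replicate block, 1425 with the array set as a term and 386 on the high-ratio arrays alone, where 415 were lower (1055 on all arrays). With 1 array left out these ranged from 555 to 1016 and from 662 to 1153. Separated probe sets among those tested (904 above, 752 below) numbered 2749 and 2562 on the high-ratio arrays, 2408 and 1960 on the low-ratio arrays, and 938 to 1494 and 802 to 1169 with 1 array left out; fewer arrays make separation easier by construction. Dorsal-enriched probe sets (389) numbered 258 with a 60th percentile filter, which tests fewer, 215 on the high-ratio arrays and 277 to 382 with 1 array left out. Depleted ones (310) numbered 115 on the high-ratio arrays, 198 on the low-ratio arrays and 173 to 307 with 1 array left out. For the following counts of primary mouth against ventral tissue, members were defined anew in each setting. Primary mouth above ventral tissue among the enriched (79) was 157 with the replicate block, 155 with the set as a term, 32 and 50 within the sets and 45 to 80 with 1 array left out. Primary mouth below ventral tissue among the depleted (89) was 144, 144, 35, 33 and 43 to 76. Copy pairs that differed (47) numbered 59 with the replicate block, 73 with the set as a term, 15 on the high-ratio arrays and 21 to 45 with 1 array left out. Other than by construction, the cause was not tested. Samples with the same number did not all deviate together (r from -0.234 to 0.676). The negative values, -0.234 and -0.123, were those of primary mouth 2 with anterior dorsal 2 and ventral 2, which are of the other array set. Number and array set largely coincide, so whether the numbers pair the samples cannot be told. The block changed no call against the mean of both tissues among the 125 named genes. None of these genes changed direction (0). Because they were chosen as separated, a reversal was not possible when arrays were left out or 1 array set was used. Of the 125, 9 lost the call against the mean of both tissues in at least 1 alternative other than a fit on 1 array set. Further genes lost it in fits on 1 array set. Calls against a single tissue are not in that count, and some were lost, as given above for mab21l3.S, bambi.S and inhbb.L. Of the 40 leading genes 39 kept both pairwise calls wherever tested, the exception being agr2.S against primary mouth on the low-ratio arrays. The other alternatives (pseudocounts of 1 and 64, no filter, quantile normalization, no trend) moved no main count by over 1.5 times.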

Other observations

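Some gene copies were called in opposite directions, and these were chosen after their values were seen. The cornifelin-like gene cnfn.1.L was higher in dorsal tissue than the mean of both others (1.36 ± 0.32) and cnfn.1.S lower (-2.55 ± 0.22), a difference of 3.90 ± 0.31 (limma adjusted p = 1.42e-05). Both cnfn.1 copies overlapped between dorsal tissue and primary mouth. The lowest dorsal signal of cnfn.1.L was 379, against 423 on the highest primary mouth array. The highest dorsal signal of cnfn.1.S was 54.5, against 54.2 on the lowest primary mouth array. The tetraspanin gene cd37.L was lower (-0.92) and cd37.S higher (1.19), a difference of -2.11 ± 0.18 (adjusted p = 1.42e-05). The mitochondrial creatine kinase gene ckmt1b.L was higher (0.57) and ckmt1b.S lower (-1.75), a difference of 2.31 ± 0.24 (adjusted p = 4.75e-05). Signals of ckmt1b.L were 70.8, 74.8 and 76.1 in dorsal tissue, 11.8, 28.5 and 21.3 in primary mouth and 87.1, 101 and 74.4 in ventral tissue. It was thus above primary mouth only and overlapped ventral tissue. All 3 pairs kept an adjusted p of at most 0.000629 with any array left out. These were the 3 pairs called both ways of 690, against 73 called the same way.

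Of the members past both tests, 152 enriched and 111 depleted probe sets have no symbol in the platform annotation used here. An enriched probe set among them, chosen after its values were seen, read 559.7, 391 and 379.8 in dorsal tissue, 56.5, 32.4 and 26.1 in primary mouth and 25.7, 20.5 and 10.9 in ventral tissue (log2 difference 3.41 ± 0.21). A depleted one, chosen in the same way, read 8.90, 4.32 and 6.15 in dorsal tissue, 331, 279 and 148 in primary mouth and 182, 123 and 100.4 in ventral tissue (-3.12 ± 0.24). Both stood among the 5 leading probe sets of their direction.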
